A study of Homo sapiens with 15 samples.

Results

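Genes of cholesterol and fatty acid synthesis, with the regulators and transporters that act around them, were followed in RNA-seq libraries of 3 human AML cell lines after knockdown of RNF5, an E3 ubiquitin ligase anchored in the endoplasmic reticulum membrane. The set was defined by gene symbol and held 37 genes of the 57820 gene identifiers in the files. It comprised 8 genes of the mevalonate arm, 11 of the sterol arm, 5 that control SREBP, 5 of the LXR and efflux branch, 4 of sterol transport and storage and 4 of fatty acid synthesis. Values above 0 were found for 36 of the 37 genes in MOLM-13 and in HL-60 and for 34 in U937, and ABCG1, a sterol exporter, was listed at 0 in all 15 libraries.

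Cells make cholesterol from acetyl-CoA by way of mevalonate, farnesyl pyrophosphate, squalene and lanosterol, and the same acetyl-CoA feeds fatty acid synthesis. When sterol in the endoplasmic reticulum falls, the escort protein SCAP carries the SREBP precursors to the Golgi, where proteases release the transcription factors that switch these genes on. INSIG proteins hold SCAP back when sterol is plentiful, and the oxysterol receptors LXR switch on export and storage in its place. SREBP2 acts mainly on the cholesterol genes and SREBP1 mainly on the fatty acid genes.

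MOLM-13 is a monocytic AML line with an MLL-AF9 fusion, U937 a monocytic line and HL-60 a promyelocytic line. Each line carried the empty pLKO vector (pLKO) or an shRNA against RNF5 (shRNF5), and no line received a drug. The pLKO groups held 3 libraries each for MOLM-13 and HL-60 and 2 for U937, and the shRNF5 groups 3 for HL-60 and 2 each for the other lines. The harvest is placed at 7 days after knockdown by the sample labels and at 5 days by the series design, and the hairpin that was sequenced is not named, so that effects of RNF5 loss and of the hairpin itself cannot be told apart. Nothing in the labels says that the libraries came from separate cultures, and the p-values therefore measure the spread between these libraries, which may be technical.

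Promoter sequences were taken from RefSeq on GRCh38.p14, where 32 of the 37 genes were matched in windows from 250 bases before to 50 after the gene start. The motifs sought on both strands were the sterol regulatory element TCACNCCAC, the NF-Y box CCAAT and the Sp1 box GGGCGG, and a match to one may overlap a match to another. Each gene of the set counted with 1 window. The comparison held all windows of the reference, not reduced to 1 a gene or to genes above 0 here, so the shares are not like for like. The NF-Y box was found in 20 of the 32 promoters (62.5%) and in 34.6% of all 35116 promoter windows, and the Sp1 box in 29 (90.6%) and in 45% respectively. The sterol regulatory element in this strict spelling was found in 1 promoter of the set (3.12%) and in 1.13% of all windows. That 1 promoter was SREBF2, the gene of SREBP2, with the element starting 133 bases before the gene start. The 250 bases before the start are shown here for SREBF2 (chr22:41832855-41833104, forward strand), for HMGCS1 and MVK of the mevalonate arm (chr5:43313413-43313662, reverse strand, and chr12:109573544-109573793, forward strand) and for SC5D of the sterol arm (chr11:121292521-121292770, forward strand), as examples from the set. Capitals mark the sterol regulatory element and the NF-Y boxes, of which MVK held 5, HMGCS1 held 2 and SREBF2 and SC5D held 1 each.

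SREBF2: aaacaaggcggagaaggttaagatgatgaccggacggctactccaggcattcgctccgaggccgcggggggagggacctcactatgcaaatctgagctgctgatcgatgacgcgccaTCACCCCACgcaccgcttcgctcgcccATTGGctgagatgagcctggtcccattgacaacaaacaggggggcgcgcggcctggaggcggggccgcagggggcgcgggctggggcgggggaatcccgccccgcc

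HMGCS1: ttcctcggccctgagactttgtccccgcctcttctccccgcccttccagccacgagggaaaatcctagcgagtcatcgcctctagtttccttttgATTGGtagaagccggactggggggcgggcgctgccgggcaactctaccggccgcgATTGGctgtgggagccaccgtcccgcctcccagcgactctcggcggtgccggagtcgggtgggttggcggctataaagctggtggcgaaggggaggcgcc

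MVK: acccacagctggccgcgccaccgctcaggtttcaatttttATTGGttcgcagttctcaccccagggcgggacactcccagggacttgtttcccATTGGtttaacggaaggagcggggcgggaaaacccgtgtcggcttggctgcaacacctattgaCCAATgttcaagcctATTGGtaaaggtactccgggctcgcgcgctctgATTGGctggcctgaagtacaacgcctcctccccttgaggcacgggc

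SC5D: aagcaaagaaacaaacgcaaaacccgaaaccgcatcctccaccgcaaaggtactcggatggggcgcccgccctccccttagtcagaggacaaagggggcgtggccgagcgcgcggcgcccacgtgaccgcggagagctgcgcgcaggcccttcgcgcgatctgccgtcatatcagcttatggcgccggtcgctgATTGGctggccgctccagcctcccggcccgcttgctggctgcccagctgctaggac

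The depth of a library, inferred from the steps between its rounded values, lay between 9700000 and 63800000 counted reads a library. In MOLM-13 the depths of the constructs did not overlap, with 9700000 to 15300000 reads with pLKO and 24400000 to 63800000 with shRNF5, whereas in U937 and HL-60 they did. RNF5 itself was low in every shRNF5 library. Its normalized read counts were 1223, 1017 and 1020 with pLKO and 76 and 81 with shRNF5 in MOLM-13, 648 and 843 against 46 and 74 in U937, and 506, 689 and 545 against 37, 133 and 43 in HL-60. Replicate 2 of HL-60 shRNF5 thus kept the most RNF5. The log2 fold changes of RNF5 were -3.77 (SE 0.18), -3.64 (SE 0.37) and -3.25 (SE 0.39), with adjusted p-values of 0.000336, 0.00287 and 0.00125. Of the 6 myeloid markers listed (PTPRC, CD33, SPI1, MPO, LYZ and CEBPE), 5 were above 0 in MOLM-13, where CEBPE was at 0, and all 6 in the other lines. HOXA9 and MEIS1 were above 0 in MOLM-13 and U937 and at 0 in HL-60.

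With shRNF5, 12 genes of cholesterol synthesis fell in U937, all 4 genes of fatty acid synthesis and 5 of cholesterol synthesis fell in HL-60, and 2 genes of the set passed the test in MOLM-13. Genes were called at an adjusted p-value under 0.1 in limma and an absolute log2 fold change over 0.4, both on log2(normalized read count + 1). In U937, 16 of 34 genes (47.1%) were called lower, where 8.74% of all genes tested were, and 0 were called higher, where 6.92% of all genes were. At an unadjusted p under 0.05 in limma and the same fold the U937 counts were 19 lower and 0 higher, where 14.3% and 12.8% of all genes passed. Those of MOLM-13 were 3 lower and 5 higher of 36, where 7.55% and 7.59% of all genes passed. In HL-60, 9 of 36 (25%) were called lower against 12.3% of all genes, and 3 (8.33%) were called higher against 13.6%. In MOLM-13, 1 of 36 (2.78%) was called lower against 1.01% of all genes, and 1 (2.78%) higher against 1.03%. The median log2 fold change of the set was -0.77 for U937, -0.10 for MOLM-13 and -0.02 for HL-60, beside medians of 0.004, 0.007 and 0.002 over all genes.

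**Figure D1:**
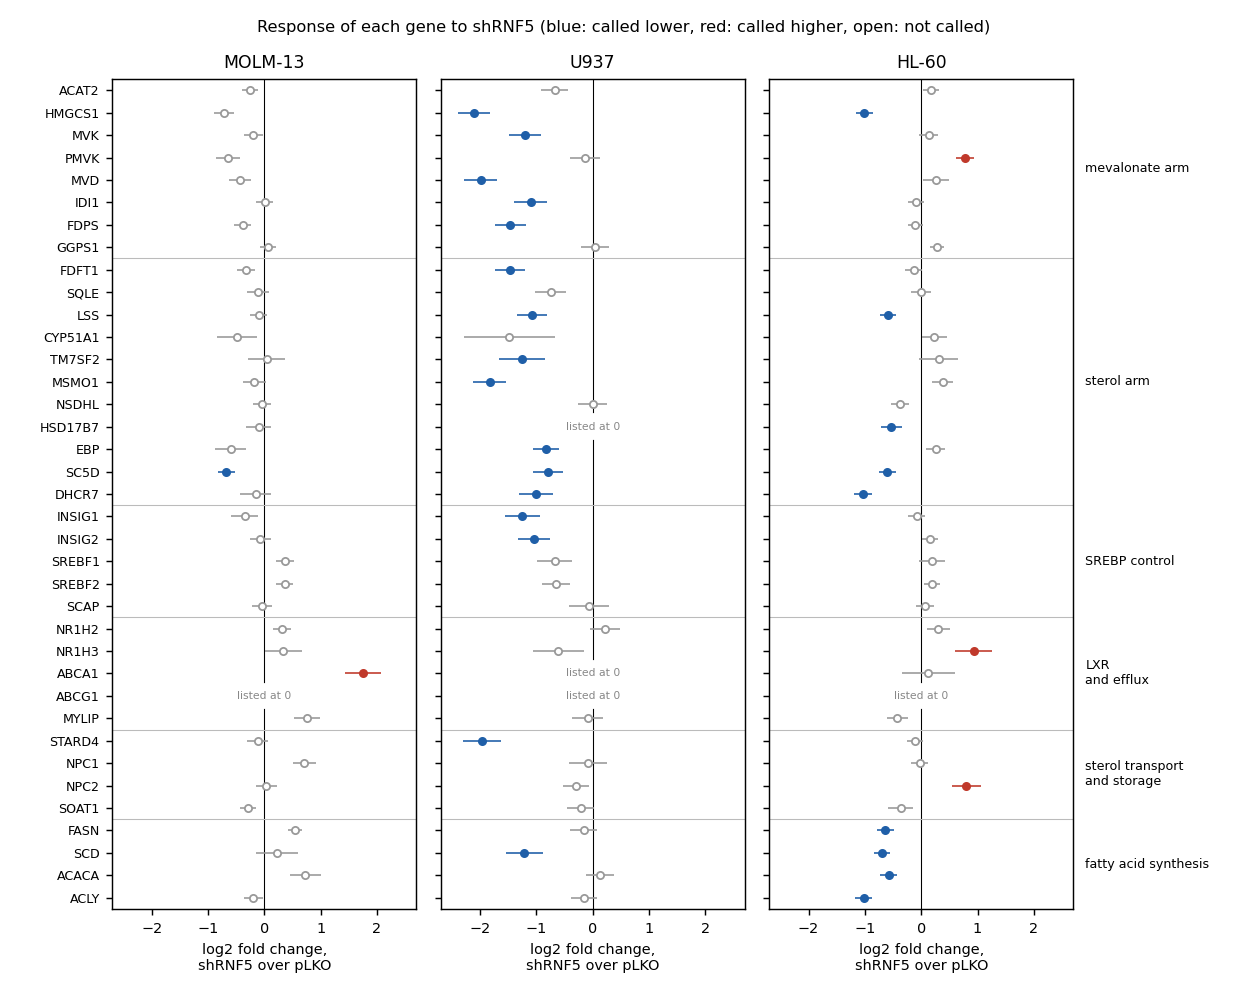
Log2 fold change (shRNF5 over pLKO, x axis, with its standard error as the bar) of each of the 37 genes (y axis, grouped by role) in MOLM-13, U937 and HL-60. Of 34 genes tested in U937, 31 lie below 0, while in HL-60 the 4 fatty acid genes are the one group that lies below 0 as a whole.

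The U937 calls rested on 2 libraries a group. Without pLKO replicate 2, without shRNF5 replicate 1 or without shRNF5 replicate 3, 0 genes of the set were called, and over all genes at most 2 were called higher and 4 lower in these fits, in which the lone library of a group was taken to vary like the others. Without pLKO replicate 3, IDI1, SCD, TM7SF2, LSS, DHCR7 and INSIG1 lost their calls, and the other genes called in U937 kept theirs. Those that lost them here were thus called in none of the 4 fits with a library left out. The direction was less affected. In these 4 fits 29 to 30 of the 34 genes lay below 0, and their median log2 fold change was between -0.88 and -0.69. At an unadjusted p under 0.05 in limma, 8 to 17 genes of the set (23.5% to 50%) passed in them, where 8.23% to 31.7% of all genes did.

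The mevalonate arm makes the isoprene units and joins them. In U937, 5 of its 8 genes fell (62.5%), where 8.74% of all genes did, and the median log2 fold change was -1.15. HMGCS1, which makes the HMG-CoA that enters the pathway, had the largest fall of the whole set. Its normalized read counts in U937 were 8175 and 8246 with pLKO and 1471 and 2446 with shRNF5, so that both knockdown libraries lay far below both controls. The fall was 4.33-fold (log2 fold change -2.11, SE 0.28, adjusted p = 0.00901). In HL-60, HMGCS1 was at 7235, 9083 and 10394 with pLKO and at 4531, 4671 and 3945 with shRNF5. These groups did not overlap either, and the fall was 2.02-fold (log2 fold change -1.01, SE 0.15, adjusted p = 0.00256). In MOLM-13 its values of 3209, 3736 and 3814 with pLKO and 1850 and 2586 with shRNF5 were also separate, with a log2 fold change of -0.71 that missed the threshold (SE 0.18, adjusted p = 0.125). HMGCS1 lies at chr5:43287572-43313614 on GRCh37 (reverse strand). A long noncoding RNA on the opposite strand covers 37.7% of its exon bases, and since the strand of counting is not stated, reads of the pair cannot be told apart.

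MVD, the decarboxylase that closes the mevalonate steps, behaved like HMGCS1 in U937. It had 2930 and 2179 normalized reads with pLKO and 496 and 809 with shRNF5, with no overlap, and fell 3.98-fold (log2 fold change -1.99, SE 0.30, adjusted p = 0.0144). In HL-60 its groups overlapped, at 287, 407 and 352 with pLKO and 383, 314 and 597 with shRNF5 (log2 fold change 0.27, adjusted p = 0.434). In MOLM-13 the values were 1045, 821 and 779 against 581 and 724, separate but not called (log2 fold change -0.43, adjusted p = 0.303). FDPS, which makes farnesyl pyrophosphate, MVK, which phosphorylates mevalonate, and IDI1, which isomerizes the isoprene unit, fell in U937 with log2 fold changes of -1.47, -1.20 and -1.11 (adjusted p = 0.0208, 0.0373 and 0.0525). In exons, FDPS shares 18.6% and IDI1 15% of its bases with antisense RNAs.

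The remaining genes of this arm did not follow. GGPS1, which leads to geranylgeranyl groups and off the sterol path, stood at 0.04 on the log2 scale in U937 (adjusted p = 0.93). ACAT2, the thiolase of the first step, stood at -0.68 (adjusted p = 0.107), just outside the threshold, and shares 17.2% of its exon bases with TCP1. PMVK, the second mevalonate kinase, stood at -0.14 in U937 (adjusted p = 0.772) and rose in HL-60, by 0.78 on the log2 scale (SE 0.16, adjusted p = 0.00993), the only gene of the arm that did so. In MOLM-13 none of the 8 genes was called in limma, where 1.01% of all genes were called lower and 1.03% higher. HMGCS1 and PMVK were lower there at an unadjusted p under 0.05 in limma and the same fold, where 7.55% of all genes passed. PMVK stood at -0.65 there (adjusted p = 0.205) and FDPS at -0.39 (adjusted p = 0.245), each with both shRNF5 libraries below all 3 pLKO libraries.

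The sterol arm runs from squalene to cholesterol. In U937, 7 of its 10 tested genes fell (70%), where 8.74% of all genes did. The median log2 fold change was -1.04, and no gene of the arm was above 0. MSMO1, which oxidizes methyl groups of the sterol ring, had 6394 and 3917 normalized reads with pLKO and 1233 and 1596 with shRNF5. The pLKO libraries differed widely but both lay above the knockdown libraries, and the fall was 3.57-fold (log2 fold change -1.83, SE 0.29, adjusted p = 0.0152). In HL-60 MSMO1 was not called, at 1913, 2306 and 2738 with pLKO and 3167, 2240 and 3756 with shRNF5 (log2 fold change 0.38, adjusted p = 0.185). In MOLM-13 it was not called either, at 1398, 1242 and 1442 against 966 and 1486 (log2 fold change -0.18, adjusted p = 0.68).

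SC5D, the desaturase that acts near the end of the pathway, was the one gene of the set called in all 3 lines. It is at chr11:121163390-121184119 on GRCh37, on the forward strand. In MOLM-13 it had 1037, 1056 and 1078 normalized reads with pLKO and 622 and 704 with shRNF5 (log2 fold change -0.67, SE 0.15, adjusted p = 0.0952). In U937 it had 929 and 774 against 485 and 489 (log2 fold change -0.80, SE 0.27, adjusted p = 0.0891). In HL-60 it had 1102, 1040 and 1421 against 805, 688 and 839 (log2 fold change -0.60, SE 0.15, adjusted p = 0.0196). Every shRNF5 library lay below every pLKO library of its line. The adjusted p-values in MOLM-13 and U937 lay close to the threshold, and the call was lost in MOLM-13 without pLKO replicate 2, without pLKO replicate 3 and without either shRNF5 library. It was also lost there with upper-quartile rescaling, without the mean-variance trend and at an adjusted p under 0.05.

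LSS, the cyclase that forms lanosterol, and DHCR7, a reductase of the last steps, fell in U937 and HL-60. LSS had 5370 and 4867 normalized reads with pLKO and 1965 and 2998 with shRNF5 in U937 (log2 fold change -1.07, SE 0.27, adjusted p = 0.0426), and 1897, 2394 and 2444 against 1607, 1306 and 1570 in HL-60 (log2 fold change -0.58, SE 0.14, adjusted p = 0.0172). DHCR7 had 2417 and 2382 against 872 and 1642 in U937 (log2 fold change -1.003, SE 0.31, adjusted p = 0.0728), and 1792, 2267 and 2008 against 1176, 797 and 1022 in HL-60 (log2 fold change -1.03, SE 0.16, adjusted p = 0.00304). In neither line did the constructs overlap for either gene. In MOLM-13 they did, with LSS at 1345, 1428 and 1619 against 1307 and 1422 (log2 fold change -0.10, adjusted p = 0.769), and DHCR7 at 786, 1081 and 1573 against 869 and 1129 (log2 fold change -0.15, adjusted p = 0.811).

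A further 3 genes of the arm fell in U937. They were FDFT1, which makes squalene (log2 fold change -1.47, adjusted p = 0.0187), TM7SF2, a sterol reductase (-1.26, adjusted p = 0.0823), and EBP, a sterol isomerase (-0.84, adjusted p = 0.0559). SQLE, the epoxidase that follows FDFT1, stood at -0.75 in U937 with an adjusted p of 0.115, and NSDHL, an enzyme of sterol demethylation, at -0.004 (adjusted p = 0.995). CYP51A1, the lanosterol demethylase, had few reads. Its values in U937 were 451 and 62 with pLKO and 103 and 34 with shRNF5, and the log2 fold change of -1.48 carried a standard error of 0.81. HSD17B7, a sterol ketoreductase, was listed at 0 in U937 and fell in HL-60 (log2 fold change -0.53, SE 0.18, adjusted p = 0.0624). It has a pseudogene copy, HSD17B7P2, with values up to 85, so its count is uncertain. The HL-60 call was lost without any 1 of the libraries other than shRNF5 replicate 2, and at an adjusted p under 0.05.

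Of the 5 genes that control SREBP, INSIG1 and INSIG2 were called, both lower in U937 (40%), where 8.74% of all genes were. INSIG1, itself a classical SREBP target whose product retains SCAP, had 12057 and 18096 normalized reads with pLKO in U937 and 4869 and 7916 with shRNF5. All knockdown values lay below the controls, a fall of 2.38-fold (log2 fold change -1.25, SE 0.31, adjusted p = 0.0433). In MOLM-13 INSIG1 had 2559, 3775 and 4534 against 2454 and 3131 (log2 fold change -0.35, adjusted p = 0.49), and in HL-60 it had 3212, 4280 and 4326 against 3866, 3210 and 4067 (log2 fold change -0.08, adjusted p = 0.739). Its groups overlapped in both of these lines. The U937 control libraries stood several times above those of the other lines, although the lines were normalized separately and this difference was not tested.

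INSIG2, the second retention protein, had 2104 and 1356 normalized reads with pLKO and 722 and 923 with shRNF5 in U937, with no overlap (log2 fold change -1.05, SE 0.29, adjusted p = 0.0544). In MOLM-13 it had 399, 462 and 474 against 381 and 465 (log2 fold change -0.08, adjusted p = 0.862), which overlap. In HL-60 it had 366, 337 and 382 against 395, 426 and 387, with all 3 knockdown libraries slightly above the controls (log2 fold change 0.15, adjusted p = 0.445).

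SREBF2 was called in no line, though its direction differed. In U937 its normalized read counts were 6639 and 4911 with pLKO and 3639 and 3632 with shRNF5 (log2 fold change -0.65, SE 0.25, adjusted p = 0.126). In MOLM-13 they were 4768, 4986 and 6235 against 6715 and 6901 (log2 fold change 0.36, SE 0.15, adjusted p = 0.284). In HL-60 they were 5547, 6439 and 7011 against 7762, 6225 and 7631 (log2 fold change 0.19, SE 0.14, adjusted p = 0.367). The knockdown libraries were thus all below the controls in U937, all above them in MOLM-13 and mixed with them in HL-60.

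SREBF1, the gene of SREBP1, stood like SREBF2. It had 2364 and 3097 normalized reads against 1230 and 2326 in U937 (log2 fold change -0.68, SE 0.32, adjusted p = 0.196), 3476, 3805 and 4632 against 5247 and 4893 in MOLM-13 (log2 fold change 0.36, SE 0.16, adjusted p = 0.294), and 1190, 1604 and 1707 against 2235, 1116 and 1943 in HL-60 (log2 fold change 0.19, SE 0.24, adjusted p = 0.596). SCAP was near 0 in each comparison. Its values were 2572, 2110 and 1793 against 2087 and 2063 in MOLM-13, 2348 and 1167 against 2078 and 1204 in U937, and 1653, 1755 and 1791 against 1777, 1474 and 2305 in HL-60, with log2 fold changes of -0.04, -0.07 and 0.07 (adjusted p = 0.92, 0.926 and 0.772). The groups overlapped in all 3 lines, and in U937 the replicates of each construct differed more than the constructs did.

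**Figure D2:**
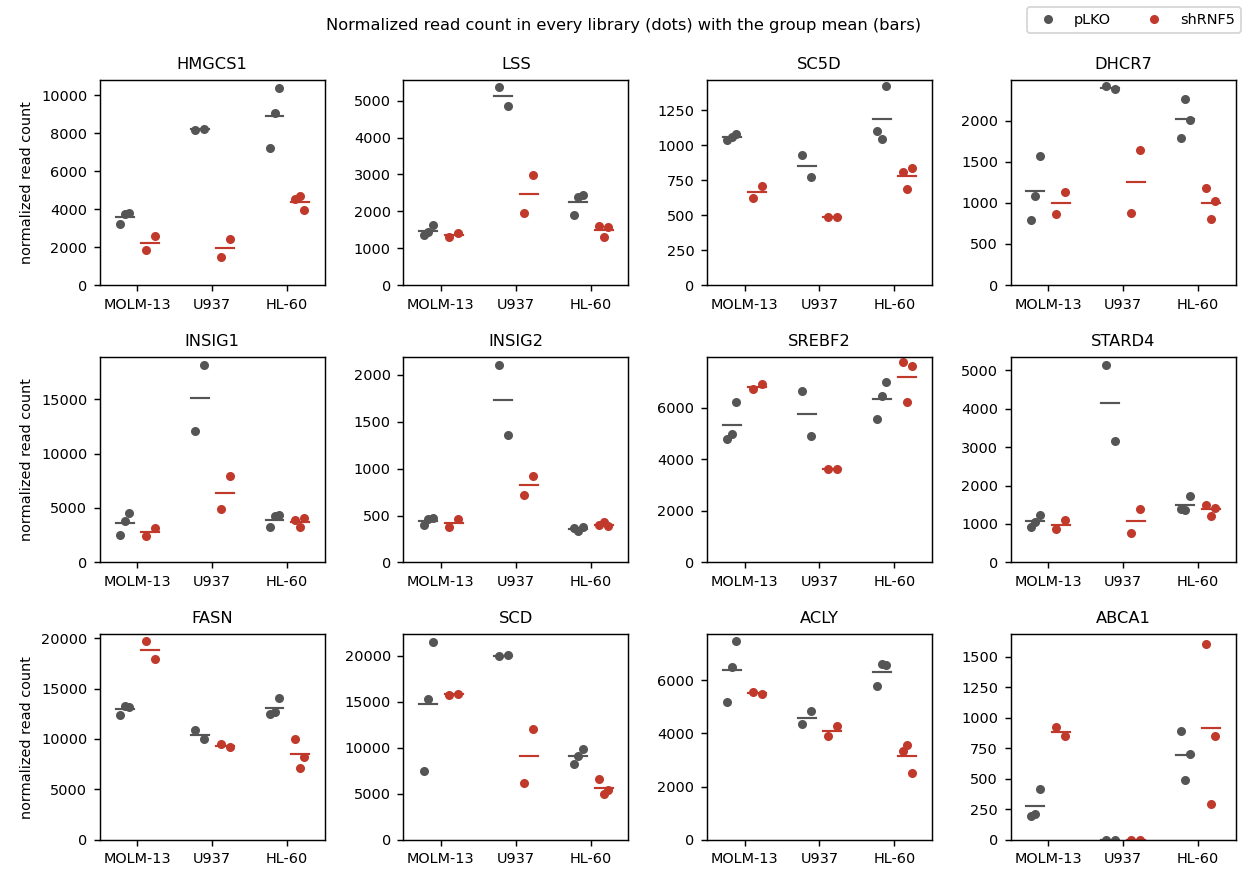
Normalized read count (y axis, from 0) of 12 genes in every library (dots) with group means (bars), pLKO in grey and shRNF5 in red, for each line on the x axis. HMGCS1 and SC5D lie lower with shRNF5 in all 3 lines, and INSIG1 and STARD4 separate in U937 only. INSIG2 lies lower in U937 and slightly higher in HL-60. ACLY lies lower in HL-60 and, by less, in U937.

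In the LXR and efflux branch the calls were rises. They were 1 of 4 tested genes (25%) each in MOLM-13 and HL-60, where 1.03% and 13.6% of all genes were called higher. ABCA1, which exports cholesterol and is a classical LXR target, had 199, 215 and 420 normalized reads with pLKO in MOLM-13 and 925 and 848 with shRNF5. Both knockdown libraries lay above all controls, a rise of 3.37-fold (log2 fold change 1.75, SE 0.31, adjusted p = 0.069). In HL-60 ABCA1 spread widely, at 891, 488 and 702 with pLKO and 1605, 293 and 849 with shRNF5, with the groups overlapping (log2 fold change 0.13, SE 0.48, adjusted p = 0.868). In U937 it was listed at 0. The MOLM-13 call was lost without pLKO replicate 2 and without either shRNF5 library, with log2 fold changes of at least 1.52 over all alternatives. It was also lost at an adjusted p under 0.05, without the mean-variance trend and in a single fit of the 15 libraries. The depths of the MOLM-13 constructs differ too, as given above, and their part in the rise was not tested.

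NR1H3, the gene of LXR alpha, rose in HL-60, from 29, 41 and 19 normalized reads with pLKO to 42, 61 and 65 with shRNF5 (log2 fold change 0.93, SE 0.33, adjusted p = 0.0693). The lowest knockdown value was barely above the highest control, and the call was lost without pLKO replicate 1, pLKO replicate 3, shRNF5 replicate 2 or shRNF5 replicate 3. In U937 NR1H3 had 120 and 140 against 59 and 121 (log2 fold change -0.61, adjusted p = 0.407), and in MOLM-13 104, 76 and 151 against 125 and 144 (log2 fold change 0.34, adjusted p = 0.626). NR1H2, the gene of LXR beta, was called in no line and lay between 0.21 and 0.31 on the log2 scale. It shares 22.1% of its exon bases with NAPSA. MYLIP, an LXR-induced ligase, was not called either, with log2 fold changes of 0.75 for MOLM-13 (adjusted p = 0.176), -0.09 for U937 (adjusted p = 0.862) and -0.42 for HL-60 (adjusted p = 0.131).

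Among the transport and storage genes, STARD4, which carries cholesterol between membranes and is an SREBP target, fell in U937. It had 5125 and 3155 normalized reads with pLKO and 752 and 1394 with shRNF5, a 3.92-fold fall with no overlap (log2 fold change -1.97, SE 0.34, adjusted p = 0.0179). In MOLM-13 it had 919, 1044 and 1245 against 863 and 1105 (log2 fold change -0.12, adjusted p = 0.779), and in HL-60 1386, 1354 and 1737 against 1502, 1205 and 1424 (log2 fold change -0.11, adjusted p = 0.599), which overlap. NPC2, which hands on sterol in the lysosome, rose in HL-60 (log2 fold change 0.80, SE 0.26, adjusted p = 0.0513), a call lost without pLKO replicate 1, pLKO replicate 3 or shRNF5 replicate 3. Its partner NPC1 was called in no line, standing at 0.71 on the log2 scale in MOLM-13 (adjusted p = 0.164) and near 0 elsewhere. SOAT1, which esterifies cholesterol for storage, ranged from -0.36 to -0.21 and was not called.

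The genes of fatty acid synthesis make and desaturate the acyl chains. In HL-60 all 4 genes fell, where 12.3% of all genes did, and their median log2 fold change was -0.66. SCD was the one of them that fell in U937. Over all genes, the rank correlation of the log2 fold change with transcript length was -0.203 in HL-60, 0.261 in MOLM-13 and 0.119 in U937. With the length correction FASN, SCD and ACLY kept their HL-60 calls. ACACA had no matched length, so none of its results could be corrected. The part of length in these falls was not tested otherwise. ACLY, which makes cytosolic acetyl-CoA from citrate, had 5793, 6597 and 6548 normalized reads with pLKO and 3342, 3564 and 2510 with shRNF5 in HL-60. No values overlapped, and the fall was 2.03-fold (log2 fold change -1.02, SE 0.15, adjusted p = 0.00218). ACLY stood at 4344 and 4820 against 3905 and 4291 in U937 (log2 fold change -0.16, adjusted p = 0.692) and at 5180, 6497 and 7470 against 5547 and 5473 in MOLM-13 (log2 fold change -0.20, adjusted p = 0.588). FASN, the fatty acid synthase, fell in HL-60 by 0.64 on the log2 scale (SE 0.15, adjusted p = 0.0143), and ACACA, the carboxylase that makes malonyl-CoA, fell by 0.58 (SE 0.16, adjusted p = 0.0273), a call lost without pLKO replicate 3. In MOLM-13 FASN and ACACA stood at 0.54 and 0.73, with every shRNF5 library above every pLKO library, and missed the threshold (adjusted p = 0.115 and 0.251). In U937 they stood at -0.16 and 0.12 (adjusted p = 0.707 and 0.778).

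SCD, the desaturase that makes oleic acid, was the one gene of this group called in 2 lines. It had 19945 and 20135 normalized reads with pLKO and 6207 and 12045 with shRNF5 in U937 (log2 fold change -1.21, SE 0.32, adjusted p = 0.0512), and 8279, 9078 and 9875 against 6617, 4929 and 5397 in HL-60 (log2 fold change -0.69, SE 0.14, adjusted p = 0.00885). The constructs did not overlap in either line, although the shRNF5 libraries of U937 lay far apart. In MOLM-13 the pLKO libraries ran from 7521 through 15263 to 21516 and held the shRNF5 values of 15791 and 15823 within them (log2 fold change 0.23, SE 0.37, adjusted p = 0.786).

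**Figure D3:**
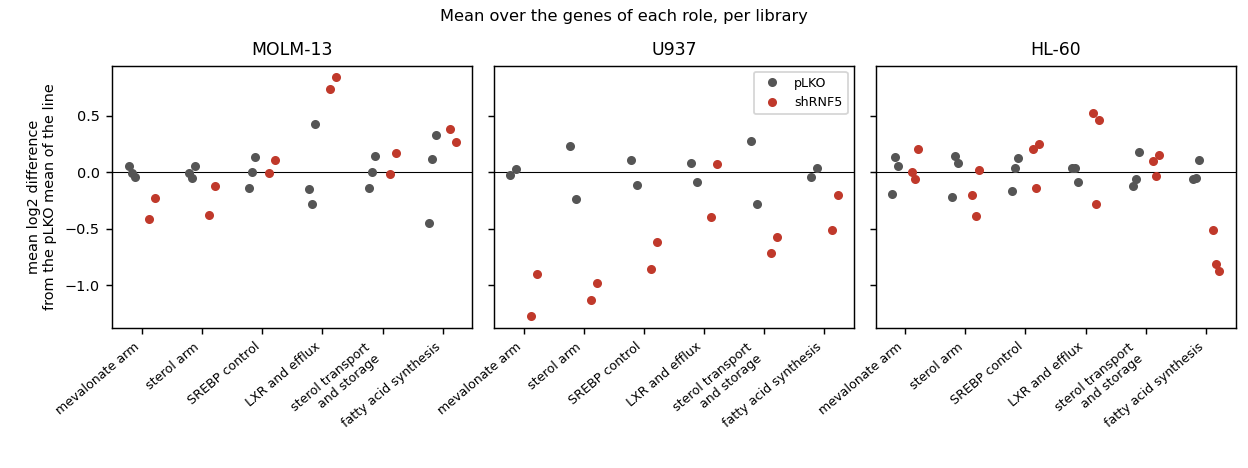
Mean over the genes of each role of the log2 difference from the pLKO mean of the line (y axis), 1 dot a library, pLKO in grey and shRNF5 in red. In U937 the shRNF5 libraries reach -1.27 and -0.90 for the mevalonate arm and -1.13 and -0.98 for the sterol arm, and in HL-60 they lie between -0.88 and -0.51 for fatty acid synthesis.

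Over the lines, 24 of the 37 genes were called in at least 1 line and 13 in none, and no gene was called in opposite directions in 2 lines. HMGCS1, LSS, DHCR7, SC5D and SCD were the 5 genes called lower in both U937 and HL-60. They were 31.2% of the U937 falls and 55.6% of the HL-60 falls. Over all genes, 8.74% were called lower in U937 and 12.3% in HL-60. The shares of all genes called in any line or in both lines were not counted. Whether the set shares more calls than all genes do is therefore not shown. In U937, LSS, DHCR7 and SCD were called in none of the fits with a library left out.

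The difference in response between lines was tested directly in 1 limma fit over the 11072 genes above 0 in all 3 lines, which included 34 of the set. Between U937 and HL-60, 18 genes of the set (52.9%) had a lower log2 fold change in U937, where 18.1% of all genes did, and 1 (2.94%), ACLY, had a higher one, where 19.1% did. Of the 18, 7 were mevalonate genes, led by MVD with a difference of -2.26 (SE 0.38, adjusted p = 0.00125), and 5 were sterol genes, led by MSMO1 with -2.21 (SE 0.36, adjusted p = 0.00099). INSIG1, INSIG2 and SREBF2 were among them too, at -1.17, -1.20 and -0.84 (adjusted p = 0.0261, 0.00618 and 0.0184). For the 3 sterol genes called lower in both lines the difference was not called. It was 0.03 (SE 0.39, adjusted p = 0.969) for DHCR7, -0.49 (SE 0.26, adjusted p = 0.164) for LSS and -0.20 (SE 0.23, adjusted p = 0.555) for SC5D, and a difference inside such errors is not shown to be absent.

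Between MOLM-13 and U937, 13 genes (38.2%) had a higher log2 fold change in MOLM-13, where 6.95% of all genes did, and 0 had a lower one in limma, where 8.48% did. At an unadjusted p under 0.05 and the same size the counts were 17 and 0, where 11.7% and 14.8% of all genes passed. STARD4 led with 1.85 (SE 0.37, adjusted p = 0.014), followed by MSMO1 with 1.65, MVD with 1.56, SCD with 1.44 and HMGCS1 with 1.40. SREBF2 differed by 1.01 (SE 0.25, adjusted p = 0.0289) although it was called in neither line alone. This count fell to 0 without U937 shRNF5 replicate 1, to 1 without MOLM-13 shRNF5 replicate 2 and to 4 without U937 pLKO replicate 2. Between MOLM-13 and HL-60 the differences were few. A set of 4 genes (11.8%) had a higher log2 fold change in MOLM-13, where 3.72% of all genes did, namely ACACA at 1.31, FASN and MYLIP at 1.18 each and ACLY at 0.83, and 1 (2.94%) had a lower one, PMVK at -1.43, where 5.09% did. Of these 4, 3 belong to fatty acid synthesis. Between U937 and HL-60 the count was 15 to 21 whichever library was left out.

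**Figure D4:**
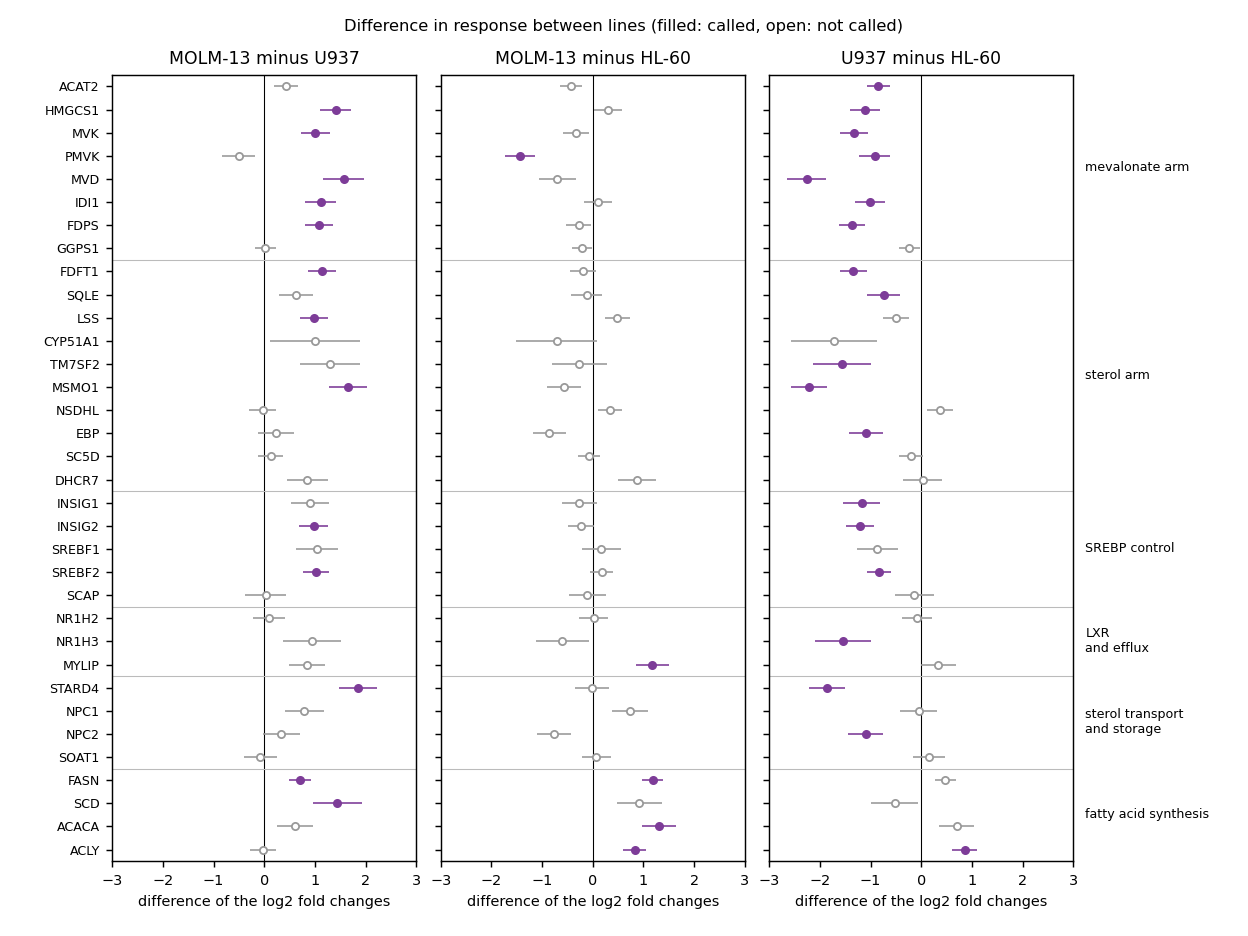
Difference between 2 lines in the log2 fold change of each of 34 genes (x axis, with its standard error as the bar), filled where called. Most cholesterol genes lie right of 0 for MOLM-13 minus U937 and left of 0 for U937 minus HL-60, and the fatty acid genes FASN, ACACA and ACLY lie right of 0 for MOLM-13 minus HL-60.

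Promoter windows were matched for 15 of the 16 genes that fell in U937, and 13 of them held the NF-Y box, as did 6 of the 15 windows of the genes that were not called lower. In HL-60 the counts were 7 of 8 and 13 of 24. The Sp1 box was in all 15 U937 promoters of genes that fell and in 12 of the others. The SREBF2 promoter shown above, with the strict sterol regulatory element, belongs to a gene that was not called. These are counts of letters in short windows, and no test was made on them.

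Other genes of the pathway, 48 in 4 lists, were counted in the same fits. In MOLM-13, 0 of 48 were called in limma, where 1.01% of all genes were called lower and 1.03% higher. At an unadjusted p under 0.05 in limma and the same fold 5 were lower and 2 higher, where 7.55% and 7.59% of all genes passed. In U937, 8 of 46 (17.4%) were called lower and 2 (4.35%) higher, where 8.74% and 6.92% of all genes were. In HL-60, 11 of 48 (22.9%) were called lower and 5 (10.4%) higher, where 12.3% and 13.6% of all genes were. The list of elongation, desaturation and activation genes had 4 of 13 (30.8%) lower in U937. ACSS2, which makes acetyl-CoA from acetate, fell there from a mean of 3842 to 577.5 normalized reads (log2 fold change -2.67, SE 0.35, adjusted p = 0.00901) and rose in HL-60 (0.62, SE 0.20, adjusted p = 0.0524), where its groups overlapped. ACACB, the mitochondrial acetyl-CoA carboxylase, FADS2, a desaturase, and LPIN1, a phosphatidate phosphatase, fell in U937 by 1.34, 0.94 and 0.86 on the log2 scale (adjusted p = 0.0421, 0.081 and 0.0666). LPIN1 fell in HL-60 as well, with a log2 fold change of -1.003 (adjusted p = 0.00654).

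In HL-60 the elongases ELOVL6 and ELOVL5 fell by 1.25 and 0.90 (adjusted p = 0.00687 and 0.00321), and HSD17B12, an elongation reductase, by 0.41 (adjusted p = 0.0415). ME1, the malic enzyme that makes NADPH, rose there by 1.71 on the log2 scale (SE 0.25, adjusted p = 0.00232). Of 15 genes of sterol binding and traffic, 6 (40%) fell in HL-60, where 12.3% of all genes did. They were the sterol-binding protein TMEM97 (log2 fold change -1.12, adjusted p = 0.00157), the HDL receptor SCARB1 (-0.75), the cholesteryl ester hydrolase NCEH1 (-0.71), LRP8 (-0.65), the phospholipid acyltransferase LPCAT3 (-0.59) and GRAMD1A (-0.41). In U937, GRAMD1A, which moves cholesterol from the plasma membrane, fell by 1.35 (adjusted p = 0.0297), and the sterol transfer proteins OSBPL2 and STARD3 had log2 fold changes of -1.18 and -0.92 (adjusted p = 0.0544 and 0.0646), while LRP8, a lipoprotein receptor, rose by 0.92 (adjusted p = 0.0561). LRP8 was thus called in opposite directions in the 2 lines, in U937 on 2 libraries a group. The difference between the lines is not given for it.

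Among the SREBP proteases and sterol-regulated ligases, 0 of the 9 genes were called lower in U937 in limma, where 8.74% of all genes were. At an unadjusted p under 0.05 in limma and the same fold 0 were lower too, where 14.3% of all genes passed. With 9 genes, a count of 0 does not stand apart from these shares. The ubiquitin ligase RNF145 rose in U937 (log2 fold change 0.89, adjusted p = 0.0743). In HL-60, ERLIN1, which helps to degrade membrane proteins, and the ligase SYVN1 rose (0.80 and 0.42, adjusted p = 0.00939 and 0.0629), and the conjugating enzyme UBE2G2 fell (-0.48, adjusted p = 0.0313). In the isoprenoid branch 1 of 9 genes (11.1%) was called in each of these lines. RABGGTB, a subunit of a geranylgeranyl transferase, was lower in U937 (-0.72, adjusted p = 0.0985), where 8.74% of all genes were lower. COQ2, of ubiquinone synthesis, was higher in HL-60 (0.82, adjusted p = 0.0173), where 13.6% of all genes were higher. These counts do not stand apart from the shares of all genes either.

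Markers of other cell types were near 0. Of 10 markers, the T cell, erythroid and EPCAM rows were at 0 in all libraries, and the summed level of all 10 was 82 to 128 with pLKO and 130 to 134 with shRNF5 in MOLM-13, 76 to 347 against 62 to 65 in U937, and 6 to 8 against 18 to 25 in HL-60. The summed level of HOXA9 and MEIS1 in U937 was 10399 to 12574 with pLKO and 4143 to 6111 with shRNF5. The summed myeloid markers in HL-60 were 114987 to 139311 with pLKO and 150377 to 219666 with shRNF5, most of it MPO. Of the 6, PTPRC, MPO and LYZ rose in HL-60 (log2 fold changes of 0.42, 0.60 and 1.25, adjusted p = 0.0431, 0.078 and 0.0777) and CD33 fell (-0.45, adjusted p = 0.0241). The part of these shifts in the results was not tested. In bulk libraries, fewer cells of a type and less RNA per cell cannot be told apart.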

How the data were processed

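RNA-seq libraries were grouped by the line, construct and replicate number in the sample labels. The authors trimmed the reads, mapped them with STAR to hg19, assigned them to genes by featureCounts of Subread and scaled each line on its own in SARTools with edgeR. What they deposited is a score: each library's counts after scaling, given as whole numbers, with 0 for genes removed by the authors' filter. A 3′ end kit stands in the labels and a directional poly(A) kit in the methods, and the strand of counting is not given in the sources used here. If only 3′ ends were read, values of one gene compare between libraries and not between genes, and no levels of different genes were compared.

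limma 3.58.1 in R 4.3.3 was run on log2(value + 1) across all genes of a line above 0 in any library, with empirical Bayes, a mean-variance trend and Benjamini-Hochberg adjustment over all genes tested (13026 for MOLM-13, 13165 for U937 and 12570 for HL-60). A pseudocount of 1 understates changes of low genes. The procedure and the depth estimate were tested on simulated data. No library pair held identical values. The depth estimates limit genes with low values most, and no counting interval is given because the values are not counts.

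The genes and lists were chosen with earlier results of these data known. Values in every library are given for the 5 SREBP control genes, genes called in at least 2 lines, the 4 called genes with the largest log2 fold change in each line, and RNF5. The library values of CYP51A1 were given after they were seen. Alternatives were other thresholds, pseudocounts, filters on low values, rescalings, no trend, a transcript length correction (lengths for 97.6% to 97.8% of genes), a single fit of the 15 libraries, a replicate block, and the omission of each library in turn. The replicate numbers were not taken to pair the samples. Coordinates and overlaps came from GENCODE on GRCh37, in which the identifier of ACACA was not matched. A gene of the further pathway lists is not reported here and was left out of their counts.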

Additional observations from a re-analysis of the deposited data

Results flagged for a closer look

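Genes are listed here because their response to shRNF5 differed between 2 lines in limma's test of the difference itself, with the difference of the log2 fold changes in brackets. Between MOLM-13 and U937 the log2 fold change was higher in MOLM-13 for HMGCS1 (1.40), MVK (1.00), MVD (1.56), IDI1 (1.11), FDPS (1.08), FDFT1 (1.15), LSS (0.98), MSMO1 (1.65), INSIG2 (0.97), SREBF2 (1.01), STARD4 (1.85), FASN (0.70) and SCD (1.44). Between MOLM-13 and HL-60 it was higher in MOLM-13 for MYLIP (1.18), FASN (1.18), ACACA (1.31) and ACLY (0.83), and lower for PMVK (-1.43).

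Between U937 and HL-60 the mevalonate genes lower in U937 were ACAT2 (-0.84), HMGCS1 (-1.10), MVK (-1.33), PMVK (-0.92), MVD (-2.26), IDI1 (-1.01) and FDPS (-1.36). The sterol genes were FDFT1 (-1.34), SQLE (-0.74), TM7SF2 (-1.56), MSMO1 (-2.21) and EBP (-1.09). Outside synthesis, the difference was called for INSIG1 (-1.17), INSIG2 (-1.20), SREBF2 (-0.84), NR1H3 (-1.54), STARD4 (-1.86) and NPC2 (-1.10). ACLY (0.86) was the 1 gene with the higher log2 fold change in U937. The comparisons share libraries, so that a gene listed under both comparisons with U937 is not seen independently in each. The difference for SQLE, whose adjusted p of 0.095 lay close to the threshold, lost its call in 17 of 23 alternatives, more than any other gene listed.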

How the results depend on the processing

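Leaving out each library in turn gave 0 to 2 genes of the set called higher and 0 to 2 called lower in MOLM-13, 0 higher and 0 to 13 lower in U937, and 1 to 6 higher and 7 to 10 lower in HL-60. The differences in response ranged from 0 to 17 genes for MOLM-13 against U937, from 1 to 8 for MOLM-13 against HL-60 and from 15 to 21 for U937 against HL-60. RNF5 kept its direction, with log2 fold changes of -3.98 to -3.30 in U937, where its call was lost without pLKO replicate 2 or shRNF5 replicate 1. At an adjusted p under 0.05, 0 genes were called higher and 0 lower in MOLM-13, 9 lower in U937, 1 higher in HL-60, and 3 differed for MOLM-13 against HL-60. Without the mean-variance trend the counts were 0 higher and 0 lower in MOLM-13 and 4 lower in U937. In MOLM-13, an unadjusted p under 0.05 gave 5 higher and 3 lower, upper-quartile rescaling 2 higher and 0 lower, and the length correction 2 lower. The count of 9 falls in HL-60 stayed within 1.5 times under every alternative run, but by gene HSD17B7 lost its call in 6 of them, ACACA in 2 and SCD in 1.

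A replicate block by the title numbers gave 4 higher and 2 lower in MOLM-13, and by the file name numbers 5 higher and 4 lower. Over all 13026 genes these blocks called 384 higher and 354 lower, and 1286 higher and 1209 lower. Without a block, 134 were called higher and 132 lower. The correlation of deviations for the title numbers was -0.17 and -0.53 in MOLM-13 and for the file name numbers 0.53 and 0.28. With the replicate block 0 genes differed for MOLM-13 against U937, 9 for MOLM-13 against HL-60 and 9 for U937 against HL-60, and the counts in HL-60 were 3 higher and 10 lower. The block by title numbers ended the call of SC5D in MOLM-13, the 13 differences between MOLM-13 and U937, and 10 of the 19 between U937 and HL-60, among them HMGCS1, INSIG2, SREBF2 and ACLY. Libraries of HL-60 that carry 1 number had deviations correlated at 0.50, 0.16 and -0.11, and replicate 2 with pLKO correlated best with replicate 3 with shRNF5, at 0.40. Same-numbered libraries thus deviated together by the file name numbers in MOLM-13, but not by the title numbers there and not throughout in HL-60. The 2 shRNF5 libraries of MOLM-13 deviate from their mean by equal and opposite amounts. Its correlations of 0.53 and -0.53 are therefore 1 value with the sign reversed, and the 2 numberings are not separate evidence. Whether either numbering pairs the libraries was not settled. No block could be fitted within U937, whose groups share 1 number. No called gene of the set changed direction under any alternative run. The cause of each change was not tested. The limits are the 2 libraries a group in U937, where 3 of the 4 fits with a library left out called no gene of the set, the unequal depth in MOLM-13, and the lone library that is assumed to vary like the others wherever a group of 2 lost 1.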
